A study of Mus musculus with 6 samples.

Results

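The ISG15 conjugation machinery was followed in healthy hematopoietic stem and progenitor cells (HSPCs) of leukemia-bearing mice through 5 genes, which are 5 of the 32285 genes in the files. The members were chosen by symbol, namely Isg15, Uba7, Ube2l6, Herc6 and Usp18, and each symbol was found once. The rule uses no measured value. The question was whether these genes differed between PBS and AML recipients, and whether a difference was shared by all cells or lay in a few.

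ISG15 is a small protein with a ubiquitin-like fold that cells join to other proteins after type I interferon has bound its receptor. UBA7 (the E1 enzyme) activates it, UBE2L6 (the E2 enzyme) carries it, and HERC6 is the main mouse ligase (E3) that hands it to newly made proteins. USP18 is the protease that removes it again, and USP18 also binds the interferon receptor and damps its signal. The genes of all these proteins are induced by interferon in many cell types, and interferon is known to push resting hematopoietic stem cells into the cell cycle.

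The AML recipients were C57BL/6J (CD45.1) female mice, 8 to 12 weeks old and not conditioned, which had been injected with 1000000 C1498 cells each. C1498 is a mouse acute myeloid leukemia line that carries CD45.2, so that the CD45.1+ Lin- cKit+ Sca1+ (LSK) cells sorted from bone marrow at day 21 were the host's own HSPCs. Controls were mice of the same strain injected with PBS. Each group has 3 droplet libraries, the leukemia is a single cell line, and the sources used here do not say whether a library held 1 mouse or several, so that p-values measure only the spread between these libraries.

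The deposited cell table keeps 16822 of 48510 barcodes, with 934 to 6838 cells in each PBS library, 693 in AML replicate 1 and 3959 in AML replicate 3. It holds 0 cells of AML replicate 2, which leaves 2 AML libraries to set against 3 of PBS. A kept cell had a median of 4015, 9586 and 4388 unique molecular identifiers (UMIs) in PBS replicates 1 to 3, and of 2393 and 5910 in AML replicates 1 and 3. AML replicate 1 stood apart, with a correlation of log2 levels over genes of at most 0.942 with any other library, where the other libraries reached at least 0.972 with each other. The 8 LSK marker genes were present in every library, summing to 1051 to 1220 per 1000000 UMIs in PBS and 1007 to 1179 in AML. The median percent of mitochondrial UMIs per kept cell was 0.920 to 1.23 in PBS and lower, at 0.648 and 0.853, in AML, and its part in the results was not tested. Of the kept cells, 72 carried a barcode that was also kept in another library.

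Isg15 is a 2-exon gene at chr4:156199424-156200818 on the minus strand (GRCm38). Uba7 lies at chr9:107975505-107984060, Ube2l6 at chr2:84798828-84810335, Herc6 at chr6:57581000-57664632 and Usp18 at chr6:121245906-121270917, all on the plus strand. Uba7 overlaps the protein-coding gene Gm20661 on its own strand, Herc6 overlaps the transcript Gm45193 on its own strand and the pseudogene Gm19244, and Usp18 overlaps the lincRNA Gm44148 on the other strand. The sources used here do not say how reads in these overlaps were divided, and the counts of these 3 members are uncertain to that extent.

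Promoter windows of 250 bases before to 50 bases after the gene start (RefSeq, GRCm38.p6) were matched by symbol for 4 of the 5 members, and not for Usp18. They were searched on both strands for GAAA followed by any 2 bases and again GAAA, the core of the element that interferon-activated factors bind, and for TTCNNNGAA, the gamma-activated sequence. The windows of Isg15 (chr4:156200769-156201068, minus strand) and Herc6 (chr6:57580742-57581041, plus strand) are shown, because Isg15 separated the groups in each of the 4 classes below and Herc6 in the HSC class alone. Both are written 5′ to 3′ along the gene, and capitals mark matches to the first motif.
Isg15: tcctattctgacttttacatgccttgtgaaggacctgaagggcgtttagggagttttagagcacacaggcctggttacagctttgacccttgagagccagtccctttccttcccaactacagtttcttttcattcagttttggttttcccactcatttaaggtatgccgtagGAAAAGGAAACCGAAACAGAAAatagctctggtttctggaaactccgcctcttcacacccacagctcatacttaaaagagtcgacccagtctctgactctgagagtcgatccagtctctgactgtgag
Herc6: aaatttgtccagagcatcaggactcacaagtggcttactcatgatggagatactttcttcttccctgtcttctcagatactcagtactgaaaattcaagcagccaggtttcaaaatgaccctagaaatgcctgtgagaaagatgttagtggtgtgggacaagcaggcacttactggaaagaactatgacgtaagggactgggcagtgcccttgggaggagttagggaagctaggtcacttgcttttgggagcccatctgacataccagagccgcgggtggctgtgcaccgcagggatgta
The Isg15 window holds 3 overlapping matches, of which the first begins 78 bases before the gene start. No match was found in the windows of Herc6, Uba7 or Ube2l6, and TTCNNNGAA was in none of the 4. Of 32851 promoter windows of this length, 3.44% hold the first motif and 8.30% hold TTCNNNGAA.

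Levels below are UMIs of a gene per 1000000 UMIs (CPM) summed over the kept cells of a library, or of one cell group in it. Isg15, the modifier itself, was at 121.7, 102.4 and 128.0 CPM in PBS replicates 1 to 3, against 261.1 and 274.5 CPM in AML replicates 1 and 3. The groups did not overlap, and the gap between them was wider than the spread within either. The means were 117 ± 13.4 CPM (SD, n = 3) and 268 ± 9.45 CPM (SD, n = 2), a ratio of 2.28. The fitted log2 fold change of Isg15 was 1.16 ± 0.238 (SE), with an adjusted p of 0.0803 in edgeR's quasi-likelihood test, which did not pass 0.05. In AML replicate 1 that level rests on 508 UMIs, and in the other libraries on 1065 to 7576.

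Over all LSK cells 0 of the 5 members passed the test. Of the 14364 genes tested, 0.153% were called higher and 0.00696% lower in AML, and 1511 had an unadjusted p under 0.05, among them Isg15 and Uba7. Such a separation upward was seen in 16% of genes, of the members only for Isg15, and downward in 13.7%, of the members only for Uba7. The call for Isg15 depended on the processing. It passed in DESeq2 (adjusted p 0.000293), with no filter on low counts (0.00343), with 6 libraries under another cell filter (0.0169), without AML replicate 3 (0.0435) and without the 10% of cells highest in other interferon-stimulated genes (0.0327). Without AML replicate 3 or AML replicate 1, here and below, the AML group is 1 library that is assumed to vary like those of PBS. Over all 16 alternatives its log2 fold change lay between 1.08 and 1.41, with adjusted p from 0.000293 to 0.324.

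**Figure D1:**
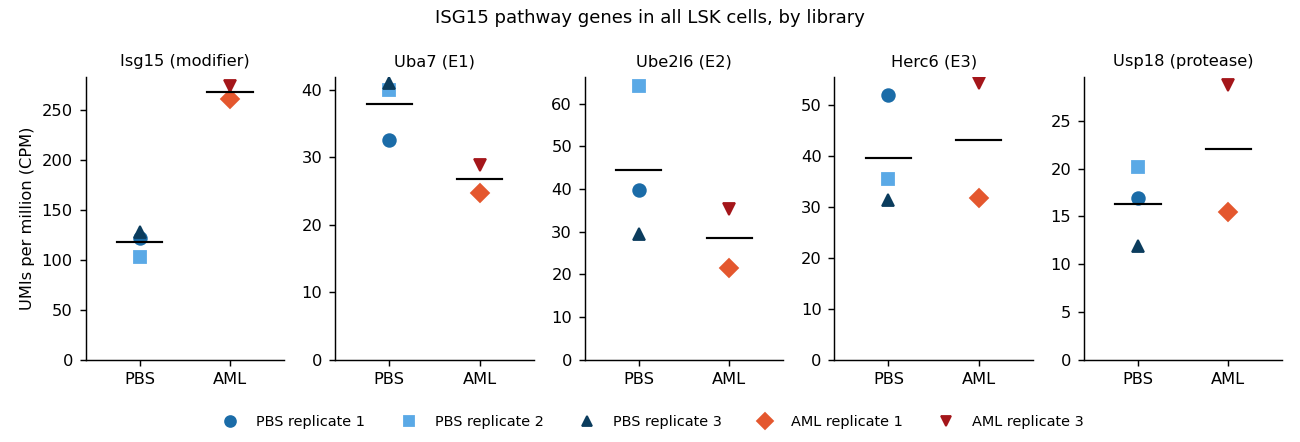
Level of each member over all LSK cells (CPM, vertical axis from 0, a scale for each panel) in 3 PBS and 2 AML libraries, with 1 symbol per library and a line at the group mean. Isg15 separates the groups (102.4 to 128.0 against 261.1 to 274.5 CPM), Uba7 lies lower in both AML libraries, and the other members overlap.

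None of the 4 members other than Isg15 passed the test over all LSK cells, and their values were mixed. Uba7, the activating enzyme, was at 32.6, 40.0 and 41.1 CPM in PBS and at 24.7 and 28.9 CPM in AML replicates 1 and 3. Both AML values lay below every PBS value, with a fitted log2 fold change of -0.52 ± 0.238 (SE) and an edgeR adjusted p of 0.473. The groups overlapped in each class taken alone and at equal class shares, as given below. Ube2l6, the conjugating enzyme, was at 39.7, 64.1 and 29.6 CPM in PBS and at 21.6 and 35.4 CPM in AML. The groups overlapped, PBS replicate 2 stood highest, and the fit gave -0.60 ± 0.312 for Ube2l6 (edgeR adjusted p 0.511).

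Herc6, the ligase, was at 52.1, 35.5 and 31.3 CPM in PBS and at 31.9 and 54.4 CPM in AML replicates 1 and 3. The AML libraries sat at either end of the PBS range, and the fitted log2 fold change of Herc6 was 0.15 ± 0.258 (edgeR adjusted p 0.850). Usp18, the deconjugating protease, was at 16.9, 20.2 and 11.9 CPM in PBS and at 15.4 and 28.8 CPM in AML. Only AML replicate 3 lay above the PBS range, and the fit gave 0.51 ± 0.271 for Usp18 (edgeR adjusted p 0.518). For both genes the sign of the fold change rested on AML replicate 3, without which Usp18 came to -0.066 and Herc6 to -0.30. AML replicate 1 holds 30 UMIs of Usp18, 42 of Ube2l6, 48 of Uba7 and 62 of Herc6, so that differences smaller than the counting error of such sums were not detectable there.

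Isg15 was next compared in the 4 classes that the authors assigned by module score. In the HSC class it was at 150.1, 112.3 and 152.8 CPM in PBS and at 228.4 and 395.4 CPM in AML, of which the first rests on 14 UMIs from 23 cells. In MPP-2 it was at 98.0, 83.3 and 118.4 CPM in PBS and at 235.2 and 234.3 CPM in AML. In MPP-3 it was at 89.8, 35.7 and 89.8 CPM in PBS and at 285.9 and 183.8 CPM in AML. The groups did not overlap in any of these classes, and in MPP-3 AML replicate 1 was the higher one. In MPP-4 it was at 144.4, 127.7 and 143.8 CPM in PBS and at 291.0 and 368.0 CPM in AML, also with no overlap.

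The ratio of AML to PBS means for Isg15 ran from 2.25 in the HSC class to 3.27 in MPP-3. The AML libraries separated upward from PBS in 19.5% of genes in the HSC class, 16.1% and 16.8% in MPP-2 and MPP-3, and 17.3% of those tested in MPP-4 cells. The fitted log2 fold changes of Isg15 were 1.12 ± 0.271, 1.17 ± 0.257, 1.5 ± 0.325 and 1.17 ± 0.237 in the same order. Isg15 rose by edgeR's test in the HSC class (adjusted p 0.0236), where 0.131% of genes were called higher and 0.0469% lower. It did not pass in MPP-2 (0.116, with 0.0399% of genes called higher), MPP-3 (0.0892, with 0.0194%) or MPP-4 (0.0771, with 0.0325%). The HSC call was lost in DESeq2 (adjusted p 0.9999), in which the other 3 classes passed, and in edgeR without PBS replicate 1 (0.270), PBS replicate 2 (0.251), AML replicate 1 (0.0655) or AML replicate 3 (0.805). Without AML replicate 3, the log2 fold change of Isg15 in the HSC class was 0.30, in a fit whose median over all genes was -0.50. It is the only one of the 20 member-by-class tests that passed. Of the members 0 were called lower in any class, beside 0.0291% of genes in MPP-3 and 0% in MPP-2 and MPP-4. Likewise 0 of the members separated downward, beside 7.19% of genes in the HSC class, 10.2% and 5.29% in MPP-2 and MPP-3, and 8.62% of those tested in MPP-4 cells.

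A call in 1 class and not in another is no difference between classes, and the difference was tested directly. Relative to the HSC class, the AML effect on Isg15 was shifted on the log2 scale by -0.13 for MPP-2 cells, 0.02 for MPP-3 cells and -0.04 for MPP-4 cells, with an edgeR adjusted p of 0.976 for the 3 shifts together. Without AML replicate 3 these shifts were 0.85, 1.42 and 0.64 (adjusted p 0.174). Of the genes tested, 0.872% differed between classes by this test, and of the 5 members 1 did, Herc6.

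The AML effect on Herc6 differed between classes (adjusted p 9.79e-05, edgeR's test of the class-by-treatment terms). In the HSC class Herc6 was at 71.0, 50.7 and 49.6 CPM in PBS and at 146.8 and 128.5 CPM in AML, a ratio of 2.41 with no overlap. In MPP-4 it was at 57.0, 40.3 and 34.1 CPM in PBS and at 51.3 and 72.2 CPM in AML. In MPP-2 it was at 41.7, 26.0 and 24.1 CPM in PBS and at 23.96 and 41.3 CPM in AML. The groups overlapped in MPP-4 and MPP-2. In MPP-3 it was at 45.0, 23.8 and 26.0 CPM in PBS and at 21.1 and 28.2 CPM in AML, also overlapping.

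Relative to the HSC class, the shift of the AML effect on Herc6 was -0.39 in MPP-4, -0.71 in MPP-2 and -1.33 in MPP-3 on the log2 scale. The call was lost without PBS replicate 1 (adjusted p 0.0638) and without AML replicate 3, and it held without any other library. In the same order the shifts were -0.33, -0.58 and -1.27 without PBS replicate 1. Without AML replicate 3, with 1 AML library, they were -0.85, -1.39 and -1.71. Within the HSC class alone the fitted log2 fold change of Herc6 was 1.03 ± 0.267, with an edgeR adjusted p of 0.0583, and AML replicate 1 gave 9 UMIs there. Scaled by library size only, Herc6 passed in the HSC class (1.2, adjusted p 0.0221). The fitted values were 0.51, 0.14 and -0.46 for Herc6 in MPP-4, MPP-2 and MPP-3.

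Usp18 was likewise highest in the HSC class of AML libraries. It was at 21.9, 22.2 and 14.9 CPM in PBS and at 32.6 and 42.7 CPM in AML, of which 32.6 rests on 2 UMIs. In MPP-2, Usp18 was at 11.5, 16.8 and 11 CPM in PBS and at 17.4 and 24.1 CPM in AML, again with no overlap. The groups overlapped in MPP-3 and MPP-4. Fitted log2 fold changes of Usp18 were 0.96 in the HSC class and 0.72, 0.41 and 0.83 in the 3 MPP classes by number, none with an adjusted p under 0.411 in edgeR's test, and the AML effect did not differ between classes by the test (0.900). With a library left out they ran from 0.33 to 1.05 in the HSC class and from 0.38 to 0.93 in MPP-2. In MPP-3 they ran from -0.68 to 0.67 and in MPP-4 from 0.073 to 0.998. For Uba7 and Ube2l6 the groups overlapped in each of the 4 classes, with AML to PBS ratios from 0.695 to 1.23 and from 0.614 to 1.13.

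**Figure D2:**
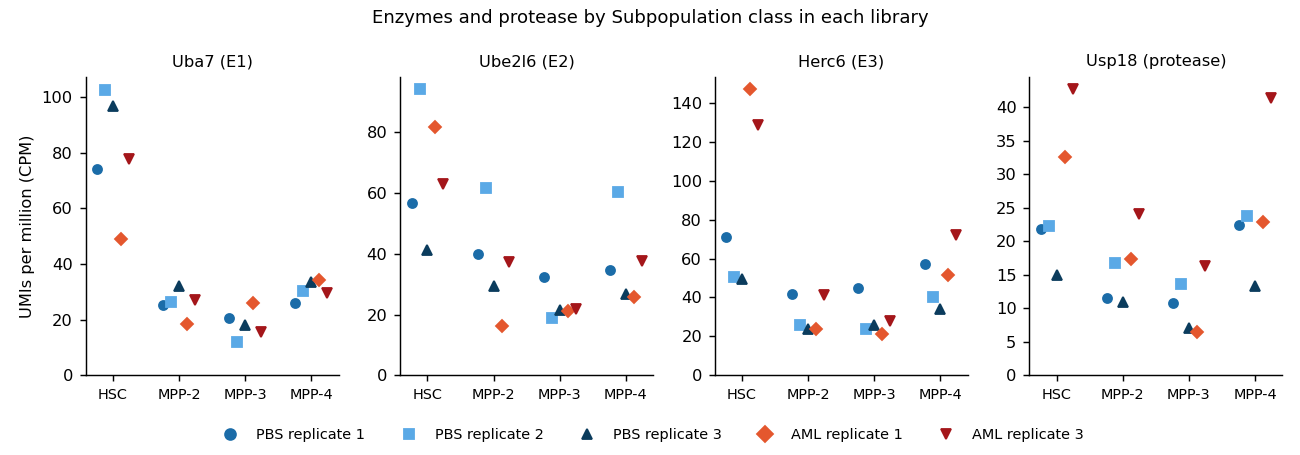
Level of Uba7, Ube2l6, Herc6 and Usp18 (CPM, vertical axis from 0, a scale for each panel) by Subpopulation class in each of 5 libraries, with 1 symbol per library. Herc6 in the HSC class lies at 128.5 and 146.8 CPM in AML against 49.6 to 71.0 CPM in PBS, where 146.8 CPM comes from 23 cells of AML replicate 1. Uba7 is highest in the HSC class of every library.

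Across classes without leukemia the members had unlike patterns, given here without a test since the classes were made from the expression of the same cells. Uba7 averaged 91.2 CPM in the HSC class of the PBS libraries, against 30.1 CPM in MPP-4, 28.0 CPM in MPP-2 and 16.9 CPM in MPP-3. The HSC range of 74.2 to 102.6 CPM lay clear of MPP-4, MPP-4 and MPP-2 overlapped, and MPP-3 lay below MPP-2. Isg15 averaged 138.6 CPM in MPP-4, 138.4 CPM in the HSC class, 99.9 CPM in MPP-2 and 71.8 CPM in MPP-3, and each neighbour in that order overlapped the next. Ube2l6 ran from 64.0 CPM in the HSC class to 24.2 CPM in MPP-3, Herc6 from 57.1 CPM in the HSC class to 30.6 CPM in MPP-2, and Usp18 from 19.9 CPM in MPP-4 to 10.5 CPM in MPP-3. Neighbours in each of these 3 orders overlapped too. Uba7, Ube2l6 and Herc6 were highest in the HSC class in all 5 libraries, AML included.

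By cell cycle phase in the PBS libraries, each member was highest in G1. Isg15 was at 144.6, 123.2 and 159.8 CPM in G1, at 97.8, 74.4 and 83.4 CPM in S and at 112.4, 99.3 and 128.1 CPM in G2M in PBS replicates 1 to 3. The S values lay below every G1 value, and in each library the order was G1, G2M, S. Uba7 was at 44.9, 56.0 and 58.3 CPM in G1 and at 19.6, 27.9 and 22.8 CPM in G2M, with no overlap either. Fitted against G1 with the library as a term, Isg15 was lower by -0.56 in S and -0.13 in G2M on the log2 scale (edgeR adjusted p 1.28e-07), and Uba7 by -0.61 and -1.02 (4.11e-10).

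The same test gave -0.70 and -0.35 for Usp18 (adjusted p 8.64e-05), -0.25 and -0.59 for Herc6 (1.32e-05) and -0.24 and -0.13 for Ube2l6 (0.0174). All 5 members were thus called in edgeR's test over 3 PBS libraries, but so were 67.8% of the 12262 genes tested, and the count by itself says little about these genes. The call for Ube2l6 was lost without PBS replicate 2 (0.0711) or PBS replicate 3 (0.102). Phases were assigned by the authors from cell cycle genes, and HSC-class cells are mostly in G1. Split by both, the PBS mean of Isg15 was higher in G1 than in S within each class, at 148 against 98.8 CPM in HSC, 116 against 75.2 CPM in MPP-2, 86.2 against 58.9 CPM in MPP-3 and 153 against 103 CPM in MPP-4. The libraries of G1 and S did not overlap in MPP-2 and MPP-4 and did in the other two. Among G1 cells, Uba7 averaged 97.7 CPM in the HSC class and 33.8 CPM in MPP-4, and these split values were not tested.

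Within each phase the difference in Isg15 between AML and PBS was present. Isg15 in AML replicates 1 and 3 was at 278.9 and 356.3 CPM in G1, at 251.1 and 209.2 CPM in S and at 262.6 and 253.1 CPM in G2M. Each of these values lay above every PBS value of the same phase, a separation seen in 15.2%, 13.8% and 16.5% of genes in G1, S and G2M. The fitted log2 fold changes of Isg15 were 1.07 ± 0.249, 1.40 ± 0.241 and 1.14 ± 0.256. Isg15 rose in S by edgeR's test (adjusted p 0.0120), where 0.223% of genes were called higher and 0.0413% lower. It did not pass in G1 (0.129, with 0.131% of genes called higher) or G2M (0.0788, with 0.169%). No member was called lower in any phase, beside 0.00771% of genes in G1 and 0.0675% in G2M. The S call was lost without PBS replicate 2 (0.127). The AML effect on Isg15 did not differ between phases by the test (0.853, where 0.461% of genes were called).

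Among the other members, Usp18 in G1 was at 29.0 and 40.2 CPM in AML against 22.9, 22.8 and 15.6 CPM in PBS, and Herc6 in G1 was at 68.8 and 81.9 CPM against 62.8, 44.2 and 40.8 CPM. Both separated in G1 and overlapped in S and G2M. Uba7 in S was at 17.1 and 22.5 CPM in AML against 27.3, 27.0 and 35.1 CPM in PBS, below every PBS library as in 11.9% of genes in S. No member separated downward in G1 or G2M, beside 9.37% and 11.4% of genes. No other member than Isg15 passed the test in any of the 15 member-by-phase fits.

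Of the authors' 9 clusters, clusters 0 to 4 hold at least 20 cells in every library. Isg15 in PBS replicates 1 to 3 was at 220.8, 196.6 and 235.8 CPM in cluster 2, the highest mean of the 9, and at 337.4 and 491.0 CPM there in AML replicates 1 and 3. In clusters 0 and 1 it was at 74.0 to 106.8 CPM in PBS and at 213.0 to 260.6 CPM in AML. In cluster 3 it was at 87.0, 71.2 and 95.9 CPM in PBS and at 367.1 and 218.1 CPM in AML. In each of these 4 clusters the groups were separate. In cluster 4 it was at 95.8, 43.9 and 73.6 CPM in PBS and at 317.9 and 145.7 CPM in AML, also above.

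An upward separation of the AML libraries was seen in 20.5%, 12.1%, 13.7%, 12.5% and 10.1% of genes in clusters 0 to 4. The fitted log2 fold changes of Isg15 were 1.2, 1.30, 0.86, 1.6 and 1.52 in that order, and the ratio of means was lowest in cluster 2, at 1.90. By edgeR's test Isg15 rose in cluster 3 (adjusted p 0.00081, with 0.137% of genes called higher) and cluster 4 (0.0137, with 0.232% higher and 0.29% lower). It did not pass in clusters 0 (0.0639, 0.0407%), 1 (0.0836, 0.146%) and 2 (0.388, 0.173%). Without AML replicate 1 both calls were lost (0.261 and 0.369), and the cluster 4 call also without PBS replicate 2 (0.0715) or PBS replicate 3 (0.104) and in DESeq2 (0.134). The AML effect on Isg15 did not differ between clusters by the test (0.933, where 0.516% of genes were called), but it did without AML replicate 3 (0.00199), where AML replicate 1 is the only AML library and the spread comes from PBS alone.

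No other member passed in any of the 25 member-by-cluster fits. None was called lower, beside 0% of genes in cluster 0, 0.00859% in cluster 1, 0.026% in cluster 2 and 0.0196% in cluster 3. Of clusters 0 to 4, Usp18 separated upward only in cluster 4, at 8.83 and 14.6 CPM against 5.42 to 8.79 CPM, a gap that rests on 2 UMIs in AML replicate 1. Uba7 separated downward in cluster 1, as did 14.4% of genes there, at 10.4 and 22.1 CPM in AML against 25.9 to 31.3 CPM in PBS. No member separated downward in clusters 0, 2, 3 and 4, beside 8.8%, 8.99%, 8.85% and 8.71% of genes. In clusters 5 to 8 a library holds as few as 2 cells, and these clusters were not compared.

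**Figure D3:**
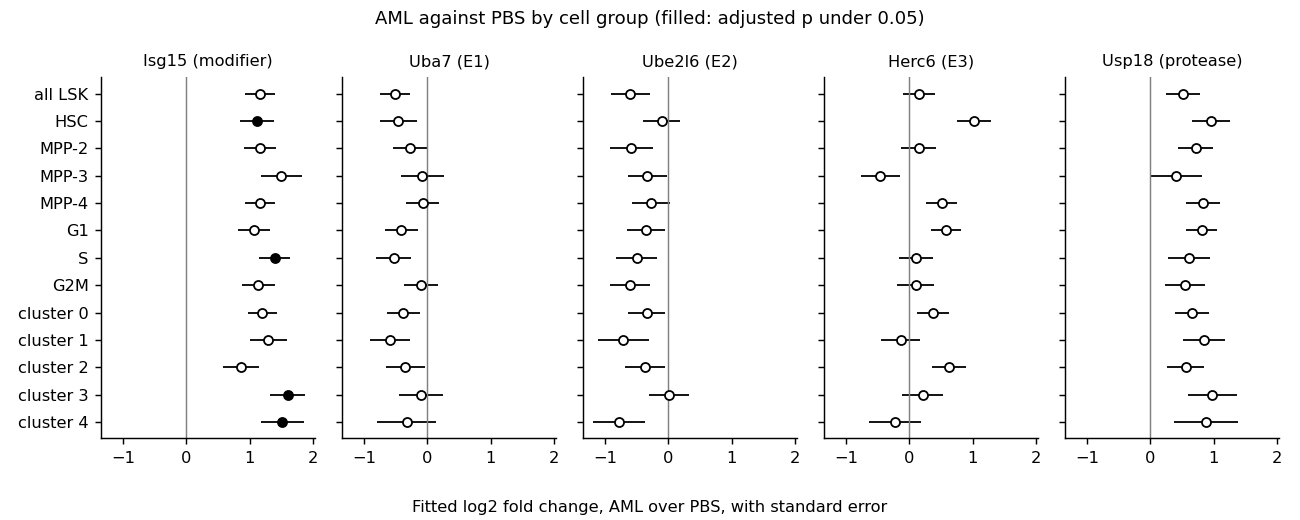
Fitted log2 fold change of AML over PBS with its standard error (horizontal axis) for each member in all LSK cells, 4 classes, 3 phases and 5 clusters. Filled points have an edgeR adjusted p under 0.05, which only Isg15 reached, in the HSC class, phase S and clusters 3 and 4. Herc6 is the member whose values spread most over classes, from 1.03 to -0.46.

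The make-up of the libraries differed. The HSC class made up 20.5%, 23.9% and 21.9% of kept cells in PBS, but 3.32% in AML replicate 1 and 13.7% in AML replicate 3. G2M cells made up 18.3% to 19.9% in PBS, 52.4% in AML replicate 1 and 24.1% in AML replicate 3. With every library set to the same class shares, Isg15 was at 124, 99.1 and 131 CPM in PBS and at 263 and 309 CPM in AML, 2.43 times higher. Set to equal phase or cluster shares the ratio was 2.33 and 2.31. Each gave p = 0.1 by exact permutation (two-sided) of the 5 libraries over 10 splits, the smallest this design allows. With equal class shares the ratio for Herc6 was 1.56 (exact permutation p = 0.2), against 1.09 over the cells as sorted. Uba7 was then at 34.1 to 42.9 CPM in PBS and at 31.3 and 35.9 CPM in AML, so that the groups overlapped, with a ratio of 0.862 (exact permutation p = 0.3). Ube2l6 gave a ratio of 0.871 (exact permutation p = 0.8) and Usp18 one of 1.62 (exact permutation p = 0.2). In AML replicate 1 equal class shares give the HSC class more weight than its 3.32% of cells. That class holds only 23 cells there, so the values at equal class shares lean on few UMIs.

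Whether many cells or a few carried Isg15 was asked after each cell was thinned to 2000 UMIs, which sets the same depth for the cells compared. It does not undo the choice of kept cells, which were 693 of 8781 barcodes in AML replicate 1 and 6838 of 9601 in PBS replicate 1. An Isg15 UMI was then expected in 17.2%, 15.3% and 17.4% of cells in PBS replicates 1 to 3, and in 34.6% and 30.4% in AML replicates 1 and 3. The AML shares were the higher ones, with a mean difference of 15.9 percentage points (exact two-sided permutation test, p = 0.1, the smallest possible). Before thinning the shares were 28.5%, 41.5% and 30.6% in PBS and 41.3% and 52.9% in AML, and within each group the deeper libraries had the higher shares. The share with 3 or more Isg15 UMIs was 1.36% to 2.15% in PBS, 3.79% and 6.46% in AML replicates 1 and 3.

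In the HSC class 15.5% to 19.6% of thinned PBS cells and 26.1% to 37.3% of AML cells held an Isg15 UMI, and in MPP-4 17.8% to 19.6% and 35.5% to 38.1%. By this measure Isg15 separated upward in 4 of 4 classes, 3 of 3 phases and 5 of 5 clusters. Usp18 did so in 1 of 4 classes (HSC), 1 of 3 phases (G1) and 0 of 5 clusters, and Uba7, Ube2l6 and Herc6 in none. Of all genes tested, such a separation of thinned shares was seen in 17.9% over all LSK cells, in 19.9%, 18.1%, 15.6% and 19.6% by class (HSC first, then MPP by number), in 17.1%, 15.8% and 19.7% in G1, S and G2M, and in 20.6%, 12.8%, 15.2%, 14.1% and 11% in clusters 0 to 4. Over all kept cells the thinned shares of the other members averaged 3.45% in PBS and 4.24% in AML for Usp18, 8.02% and 5.79% for Uba7, 8.98% and 5.70% for Ube2l6 and 8.19% and 8.61% for Herc6, none of them separating the groups upward (exact permutation p from 0.2 to 1). Uba7 separated downward, at 4.90% and 6.67% in AML against 6.93% to 8.85% in PBS, as 12% of genes did. Over all barcodes of AML replicate 1 the median was 1003 UMIs. Barcodes outside the cell table held Isg15 at 283.8 CPM in that library, at 116.9 CPM in AML replicate 2 and at 298.7 CPM in AML replicate 3, against 113.5 to 140.6 CPM in PBS. The part of RNA not bound to a cell in these shares was not tested.

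Isg15 was uneven between cells in both groups. If all cells of a library had the same level, 19.6% to 24.3% of PBS cells and 41.9% and 45.8% of AML cells would have held an Isg15 UMI, more than were found. The squared coefficient of variation of the Isg15 level between cells, beyond counting noise, was 3.86 to 5.71 in PBS, 1.51 in AML replicate 1 and 3.75 in AML replicate 3, where 0 would mean the same level in each cell. By this measure Isg15 was most even over cells in AML replicate 1, and AML replicate 3 lay just below the PBS range. For Ube2l6 the same quantity was 0.400 to 0.689 in PBS and 2.79 and 0.856 in AML replicates 1 and 3. For Herc6 it was 0.926 to 1.74 in PBS and 3.41 and 3.49 in AML. For both genes the AML values lay above every PBS library. For Usp18 it was 2.73 to 8.15 in PBS and 3.39 and 3.00 in AML. For Uba7 it was 1.17 to 1.94 in PBS and -0.938 and 1.26 in AML. In AML replicate 1 these values rest on few UMIs, and the differences were not tested.

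Cells were then split by the summed share of 43 other interferon-stimulated genes, without using any member. The 10% of cells highest in those genes held Isg15 at 572, 448 and 645 CPM in PBS replicates 1 to 3, at 401 CPM in AML replicate 1 and at 1334 CPM in AML replicate 3. The remaining cells held it at 85.9, 74.0 and 87.9 CPM in PBS and at 244 and 196 CPM in AML. In the remaining cells both AML libraries lay far above PBS, whereas among the highest cells AML replicate 1 lay below all PBS libraries. With the highest cells left out, the fitted log2 fold change of Isg15 was 1.41 and passed (edgeR adjusted p 0.0327). The cut took 10% of cells from each library, but a smaller part of the Isg15 UMIs from AML replicate 1, so that the fit depends on how it fell there. A fixed cut can also leave such cells in a library that has more of them. The fit therefore cannot show whether the rise lay outside cells high in these genes. The highest cells held 33.2% to 36.3% of all Isg15 UMIs in PBS, 16.5% in AML replicate 1 and 33.3% in AML replicate 3. They held 10.8% of the UMIs of all genes in AML replicate 1 and 6.85% to 7.60% in the other libraries, and the split was made without thinning, so that the highest cells of the shallow AML replicate 1 may not be a like set. In PBS, Usp18 followed the split like Isg15, with 52.5 to 78.3 CPM in the highest cells of PBS libraries against 8.72 to 15.8 CPM in the rest, while Uba7 followed it least, at 50.8 to 68.4 CPM against 31.1 to 39.0 CPM. In AML replicate 1 the order differed, and the highest cells held 33.3% of the UMIs of both Usp18 and Ube2l6, 29.0% of those of Herc6, 16.7% of those of Uba7 and 16.5% of those of Isg15, of totals of 30, 42, 62, 48 and 508 UMIs.

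**Figure D4:**
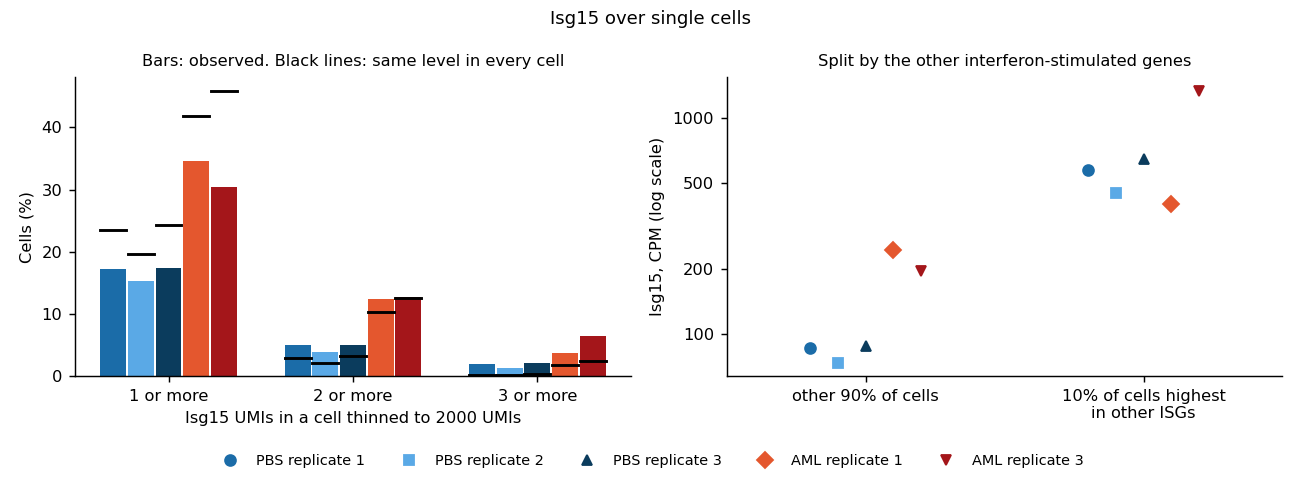
Left, share of cells (%) expected to hold 1, 2 or 3 or more Isg15 UMIs after thinning each cell to 2000 UMIs (bars, 1 per library) and the share if each cell had the library's mean level (black lines). Right, Isg15 level (CPM, log axis) in the 10% of cells highest in other interferon-stimulated genes (ISGs) and in the rest. In the rest both AML libraries lie above PBS, at 196 and 244 against 74.0 to 87.9 CPM, and among the highest cells AML replicate 1 lies below PBS. The cut is 10% of cells in each library, however many cells are high in these genes.

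Members were also counted in the same cells. Over the 5 libraries, cells with both Isg15 and Usp18 after thinning were 1.54 to 2.42 times as frequent as the product of the single shares, with a median of 2.09. For Usp18 and Herc6 this ratio was 1.74 to 3.51, and for Isg15 and Herc6 1.09 to 1.55. Isg15 and Uba7 were found together at 1.07 to 1.25 times the product, and Ube2l6 and Herc6 at 0.78 to 1.39 times. The pairs share library and cell types, and with single UMIs these ratios are a description only.

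The genes whose pattern was most like each member were ranked by Pearson r of log2 CPM over 20 sums (5 libraries by 4 classes), among 3936 genes with a mean log2 CPM of at least 5. For Isg15 they were Rnf213, itself interferon-induced (r = 0.946), Itpr1 (0.922) and Vars (0.912). For Usp18 they were Irf7 (0.872) and Irf9 (0.866), both interferon response transcription factors, and Irgm1 (0.866). Herc6 had Krit1 (0.946), Oasl2 (0.928) and Aftph (0.928), Uba7 had Nfia (0.909), Angpt1 (0.903) and Tbxas1 (0.901), and Ube2l6 had Selenbp1 (0.909), Chaf1b (0.896) and Anxa5 (0.895). Between members r ran from 0.09 for Isg15 and Ube2l6 to 0.77 for Usp18 and Herc6. The sums share libraries and classes, and the values are given without a test.

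Other genes of the pathway were taken from lists. Of 12 tested partners of ISG15 and other enzymes that can cut it, 0 were called and 10 had a positive fitted log2 fold change, with a median of 0.29 beside -0.03 over all genes tested. Upward separation of the AML libraries was seen for 6 of the 12, which is 50% beside 16% of all genes. Itgal, a chain of the surface receptor for secreted ISG15, was at 5.98, 4.23 and 9.06 CPM in PBS and at 19.5 and 12.6 CPM in AML (log2 fold change 1.17, edgeR adjusted p 0.237). Usp16, a protease that also cuts ISG15 from proteins, was at 23.8 to 38.5 CPM in PBS and at 60.6 and 38.6 CPM in AML (0.61, adjusted p 0.441). Stat2, a transducer of the interferon receptor that also brings USP18 to it, gave 0.45 and Trim25, a ligase that carries ISG15, 0.34, and neither was called.

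Of 26 counterparts that serve ubiquitin and its other relatives, 0 were called, 12 had a positive fold change and the median was -0.06. Ubb, which encodes ubiquitin itself, was at 2233 to 3835 CPM in PBS and at 1245 and 2170 CPM in AML (-0.78, edgeR adjusted p 0.460). Nae1, a subunit of the enzyme that activates NEDD8, gave -0.72, and the ligase genes Herc2 and Herc4 gave 0.57 and 0.28. The AML libraries separated upward for 3 of these 26 genes (11.5%) and downward for 4 (15.4%).

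Of 43 other interferon-stimulated genes tested, 0 were called and 36 had a positive fold change, with a median of 0.35. Upward separation was seen for 16 (37.2%). The 4 with the lowest p were Ifi27l2a, at 48.7, 87.6 and 84.9 CPM in PBS and 200.4 and 206.6 CPM in AML (log2 fold change 1.42, edgeR adjusted p 0.0792), the RNA sensor gene Oas2 (1.28, 0.0793), Rnf213 (0.97, 0.150) and Trim30a (1.04, 0.190). All 4 separated the groups upward, as Isg15 did.

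Markers of other cells moved with the groups. Summed over 8 monocyte and macrophage markers the level was 10.0 to 13.9 CPM in PBS and 32.9 and 42.9 CPM in AML, 5 of the 8 lay above every PBS library, and Ly6c2 was called. Cd14 was at 0 in some libraries. Plasmacytoid dendritic cell markers summed to 381 to 402 CPM in PBS and 533 to 588 CPM in AML, with Siglech and Ccr9 at 0 in some libraries, and 1 of their 6 genes is also among the interferon-stimulated genes. Erythroid markers summed to 784 to 1166 CPM in PBS and 273 to 585 CPM in AML, and 0 of the 7 had a positive fold change. T and NK cell markers summed to 147 to 175 CPM in PBS and 180 to 185 CPM in AML, with Cd3e and Trac among those at 0 in some libraries. The sums of neutrophil and B cell markers overlapped between the groups. The part of these cells in the level of Isg15 was not tested. Without clusters 6 to 8, the log2 fold change of Isg15 was 1.16, with an edgeR adjusted p of 0.0731.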

How the data were processed

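LSK cells of 6 libraries were measured by 10x Genomics droplet sequencing. The matrices were deposited as raw UMI counts for each gene and barcode, and the submitters' processing notes name Cell Ranger 7.0.1, Seurat 4.3.0, R 4.2.2 and the build GRCm38. Whether intronic reads were counted, how cells were filtered and how doublets were treated are not stated in the sources used here. Class, phase and cluster of each kept cell come from the table the authors deposited, of which 18 columns were not used. It also holds the percent of each cell's UMIs from mitochondrial genes, as the authors computed it in Seurat.

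Kept cells' counts were summed per library, and per library and class, phase or cluster with at least 20 cells. The sums, with totals of 1945659 to 32123508 UMIs, were tested with edgeR 4.0.16 under R 4.3.3 (TMM, filterByExpr, quasi-likelihood F test, Benjamini-Hochberg adjustment over all genes tested, threshold 0.05), after tests on simulated data. CPM uses plain totals, without TMM. Differences in the AML effect between groups were tested by interaction terms with a term per library. Shares of cells were computed as the exact hypergeometric expectation at 2000 UMIs, leaving out shallower cells, and compared by exact two-sided permutation. Fold changes are log2 of AML over PBS.

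The alternatives were DESeq2 1.42.0, limma-voom (limma 3.58.1), other filters, scalings and cell sets, the replicate number as a block and each library left out. The own filter kept barcodes with 1000 or more detected genes and with mitochondrial UMIs of 10% or less. Same-numbered libraries did not deviate together (correlations -0.057 and -0.055), so that the numbers were taken not to pair them. Both correlations come from the same difference between the AML libraries, so that they cannot exclude pairing. The members and lists were chosen with earlier results of these data known. The rule for names took the 5 members, the 4 genes of each list with the lowest p and the 3 genes most like each member. Some further genes are not reported here.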

Additional observations from a re-analysis of the deposited data

Results flagged for a closer look

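The effect of AML on Herc6 differed between the 4 classes (adjusted p 9.79e-05, edgeR's interaction test), as it did for 0.872% of genes tested. The call was lost without PBS replicate 1 and without AML replicate 3. In the HSC class AML replicate 1 has 23 cells, and the thinned shares of cells with Herc6 overlapped between the groups.

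Some values lie outside the kept cells of the 5 libraries that were compared by class, phase and cluster, and exceed every PBS library measured in the same way. In barcodes outside the cell table, Isg15 was at 283.8 CPM in AML replicate 1 and 298.7 CPM in AML replicate 3, against at most 140.6 CPM in PBS, and at 116.9 CPM in AML replicate 2. In the same barcodes Usp18 was at 21.7 CPM in AML replicate 2 and 25.04 CPM in AML replicate 3, against at most 17.6 CPM, and at 14.02 CPM in AML replicate 1. Uba7 was at 36.8 CPM in AML replicate 1 and 54.9 CPM in AML replicate 2, against at most 36.3 CPM, and at 30.8 CPM in AML replicate 3. Herc6 was at 67.9 CPM in AML replicate 3, against at most 48.9 CPM, and at 39.8 and 40.8 CPM in AML replicates 1 and 2. Ube2l6 exceeded every PBS library in none of them and leaned the other way, at 12.0 to 43.0 CPM in AML against 32.1 to 66.4 CPM in PBS. The groups thus overlapped for each member over the 3 AML libraries.

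AML replicate 2 has no kept cell. Among its 17055 barcodes, of a median of 320 UMIs, 106 passed the own filter, with 306059 UMIs in all. In these Isg15 was at 356.1 CPM (109 UMIs), against 103.8 to 131.3 CPM in PBS under the same filter, and Usp18 at 29.4 CPM (9 UMIs), against 11.5 to 18.9 CPM. Over the barcodes of AML replicate 2 as a whole, Isg15 was at 116.9 CPM, within the PBS range. Which of these barcodes hold cells was not tested.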

How the results depend on the processing

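The log2 fold change of Isg15 was positive in all 135 alternative fits over all LSK cells, classes, phases and clusters, from 0.30 to 2.01, and passed 0.05 in 52 of them. Over all LSK cells it became significant in DESeq2 (1.17), with no filter (1.13), with the own filter on 6 libraries (1.21), without the 10% of cells highest in other interferon-stimulated genes (1.41) and without AML replicate 3, and 1 member instead of 0 was then called. Leaving out each library in turn gave 1.09 to 1.30 for Isg15 and 0 to 1 members. The own filter on the 5 libraries with kept cells, an alternative added after seeing the data, did not pass (adjusted p 0.140). With a replicate block Isg15 was at 1.08 (edgeR adjusted p 0.201). Members called were then 0 over all LSK cells, 0 of 20 by class, 0 of 15 by phase and 1 of 25 by cluster. The Isg15 calls in the HSC class, S and cluster 4 were thus lost and that in cluster 3 held. Whether same-numbered libraries share more than a number is not known.

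The 23 genes called over all LSK cells became 79 in DESeq2 (53 higher, 26 lower), 392 with no filter (227 and 165), 75 with the own filter on 6 libraries (59 and 16), 91 with the replicate block (61 and 30), 11 after thinning, and 2 to 419 with a library left out (2 when PBS replicate 1 was dropped, 8 for PBS replicate 2 and 419 for AML replicate 3). Members called by class were 3 in DESeq2, 4 by library size only (Isg15 in HSC, MPP-3 and MPP-4, and Herc6 in HSC), 4 with no filter, 2 without the 5% of cells with the most UMIs and 0 to 1 with a library left out, beside 1. By phase they were 2 in DESeq2, 2 by library size only, 3 with no filter and 0 to 1 with a library left out, beside 1. By cluster they were 4 by library size only, 4 with no filter and 0 to 4 with a library left out, beside 2. Without TMM the median of all genes moved by 0.15 in the HSC class and 0.12 in MPP-3. The number of members whose AML effect differed between classes was 0 to 1, between clusters 0 to 1 and between phases 0 with a library left out, and that of members called between phases in PBS was 4 to 5. With a library left out, log2 fold changes ran from -0.066 to 0.80 for Usp18 and from -0.30 to 0.44 for Herc6 over all LSK cells, from -0.41 to 0.40 for Herc6 in MPP-2 and from -0.68 to 0.67 for Usp18 in MPP-3, each lowest without AML replicate 3.

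The difference in the thinned share of cells with Isg15 was 10.5 percentage points at 1000 UMIs and 13.8 to 18.0 with a library left out. Standardised log2 differences of Isg15 were 1.16 to 1.40 by class, 1.12 to 1.29 by phase and 1.12 to 1.27 by cluster with a library left out, and equal weights changed none by more than the spread between libraries. In cluster 4 too few cells were left to try the sums without the cells with the most UMIs. The cause of these changes was not tested. AML replicate 1, with 1945659 UMIs in kept cells, held 30 UMIs of Usp18, 42 of Ube2l6, 48 of Uba7 and 62 of Herc6, which limits what can be seen of them.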

Other observations

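One ratio was looked at after the values had been seen and is given without a test. Per UMI of Uba7, Ube2l6, Herc6 and Usp18 together, there were 0.861, 0.641 and 1.12 UMIs of Isg15 in PBS replicates 1 to 3, and 2.79 and 1.86 in AML replicates 1 and 3. The ratio was higher in both AML libraries, by 2.67 times on the log2 mean. With every library set to the same class shares it was 0.857, 0.631 and 1.11 in PBS and 1.85 and 1.75 in AML, higher by 2.13 times. In AML replicate 1 the sum of the enzymes and protease is 182 UMIs. At equal class shares its HSC class, of 23 cells, also counts for more than among the cells as sorted.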
